A study of Mus musculus with 14 samples.

Results

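Splenocytes of mice that lack STING signalling were compared with those of wild-type mice for 42 genes of the endoplasmic reticulum (ER) folding and secretory machinery. The set was named by symbol. It holds 11 chaperones and cofactors, 5 genes of disulfide formation, 11 of targeting and translocation, 4 of the signal peptidase, 4 of N-glycosylation, 5 of ER-associated degradation and 2 stress sensors. Each gene was read from its brightest probe on a whole-genome array. All 42 members were measured well above background on all 14 arrays and none of their probes was saturated. They were tested among the 24908 genes of the whole array. Beside them were set 58 symbols of other ER genes, of which 56 were tested.

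All mice had received chicken collagen type II in complete Freund's adjuvant by intradermal injection, which is the first step of collagen-induced arthritis. Spleens were taken 2 weeks later from mice that were 10 to 14 weeks old when the study used them. The 7 wild-type (WT) mice were bought from a national breeding centre, and the text of the study does not name their strain. The 7 Sting gt/gt mice carried the golden ticket allele, an induced point mutation of the gene for STING. The allele was made in the C57BL/6 background, and these mice came from another laboratory. Source and genotype therefore cannot be told apart. No unimmunized mice of either genotype were analysed here, so the values say nothing of the response to immunization. Red cells were lysed and total RNA of all remaining splenocytes was hybridised, 1 mouse to 1 array. In such a bulk sample, fewer cells of a type and less RNA per cell cannot be told apart.

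The ER is where secreted and membrane proteins are made. New chains enter through the Sec61 channel, lose their signal peptide, receive N-linked sugars, and fold with the help of chaperones and disulfide isomerases, while chains that fail are drawn out and degraded. When unfolded chains build up, sensors in the ER membrane raise the transcription of these same genes, a program called the unfolded protein response. In the spleen this machinery is most developed in plasma cells, which secrete antibody in bulk. STING itself sits in the ER membrane and signals after it binds cyclic dinucleotides.

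Levels are log2 signals, with 0 set at the 75th percentile of each array, so a difference of 1 is a doubling. A gene is called below when its unadjusted p in limma, a linear model fitted over all genes, is under 0.05. Adjusted p-values are Benjamini-Hochberg values over all 24908 genes. The number of arrays limits the precision. Replicates 1 to 3 of both genotypes were scanned on one day and replicates 4 to 7 on another, here scan day 1 and scan day 2. On scan day 1, slides 1 and 2 held both genotypes and slide 3 held 1 Sting gt/gt array. On scan day 2 each slide held 1 genotype, so slide and genotype cannot be told apart there. The Sting1 probe does not read the point mutation and is no check of the labels. Its level ran from 2.85 to 3.33 with a median of 3.12 in WT and from 2.92 to 3.29 with a median of 3.16 in Sting gt/gt, a log2 difference of 0.04 ± 0.10 (standard error, limma adjusted p = 0.999).

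Across all 14 arrays the genotypes did not separate in these genes. The mean log2 level over the 42 members ran from 2.914 to 3.003 in the WT mice, with a median of 2.974. In the Sting gt/gt mice it ran from 2.807 to 3.334, with a median of 2.998. The WT mice thus lay inside the range of the Sting gt/gt mice, whose SD was 0.21 against 0.03 (n = 7 each). Of the 42 members, 31 had a log2 difference above 0, and the median was 0.11 against 0.02 over all genes tested. Sdf2l1, a cofactor of the chaperone BiP, was the 1 member called, which is 2.38% of the members beside 3.54% of all genes. Its log2 level ran from 1.54 to 2.16 with a median of 1.66 in WT and from 1.78 to 2.62 with a median of 1.99 in Sting gt/gt. The ranges overlapped, and the difference was 0.35 ± 0.14 (standard error, limma adjusted p = 0.999, exact two-sided permutation p = 0.0274 over 3432 arrangements). Hsp90b1, an ER chaperone of the Hsp90 family, differed by 0.21 ± 0.18 (limma adjusted p = 0.999).

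The members called depended on the model and on single arrays. Sdf2l1 was lost without WT replicate 4 or 5 or Sting gt/gt replicate 5 or 6, and 3 members were called without Sting gt/gt replicate 1 or 7. With the replicate number as a block none was called, and with array weights and an intensity trend 17 were, all higher, beside 10.8% of all genes called higher in that fit. The median of the members was 0.059 and 0.061 without Sting gt/gt replicate 5 or 6, 0.0498 without scaling between arrays and 0.20 with array weights and trend. With the slide as a fixed block, which draws the genotype difference from slides 1 and 2 of scan day 1 alone, the median turned to -0.12. When the model also held the scan day, 1 member was called beside 7.24% of all genes.

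The differences ran in opposite directions on the 2 scan days. On scan day 1, 33 of the 42 members lay below 0 in Sting gt/gt relative to WT, with a median log2 difference of -0.13 where the median of all genes was 0.00. On scan day 2, 35 lay above 0, with a median of 0.28 where the median of all genes was 0.04. The mean level of the 42 members was 3.003, 3.0015 and 2.989 in the WT mice of scan day 1 and 2.807, 2.937 and 2.853 in the Sting gt/gt mice. On scan day 2 it was 2.958, 2.974, 2.951 and 2.914 in the WT mice and 3.136, 3.334, 3.294 and 2.998 in the Sting gt/gt mice. The groups did not overlap on either day, with Sting gt/gt lower on the first and higher on the second.

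On scan day 1, 6 members were called, and all were lower in Sting gt/gt. This is 14.3% of the members beside 1.2% of all genes called lower. They were Hspa5, Hsp90b1, Manf, Creld2, Pdia6 and Srp54a. None passed after adjustment, where 1 of all genes did. With 3 mice a group the exact permutation test cannot go below p = 0.1, and 13 members had groups that did not overlap with Sting gt/gt lower (31%, beside 3.77% of all genes). When single arrays were left out, between 2 and 5 members were called: 2 without WT replicate 1, WT replicate 3 or Sting gt/gt replicate 3, and 3 without WT replicate 2.

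On scan day 2, 21 members were called higher in Sting gt/gt, 50% beside 12.5% of all genes, and Sec61g was called lower, 1 of 42 beside 11.3% of all genes. After adjustment Hsp90b1 passed, 1 of 42 (2.38%) beside 1.27% of all genes, but with an array left out it did so in 1 of 8 fits, that without Sting gt/gt replicate 7. In 14 members every Sting gt/gt value lay above every WT value (33.3%, beside 8.34% of all genes). The Sting gt/gt mice were uneven, with replicate 7 lowest in the mean of the members. Without it 27 members were called instead of 22, and without replicate 5 or 6, or WT replicate 4, 11 or 12 were. Without scaling between arrays 8 were called, all higher.

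**Figure D1:**
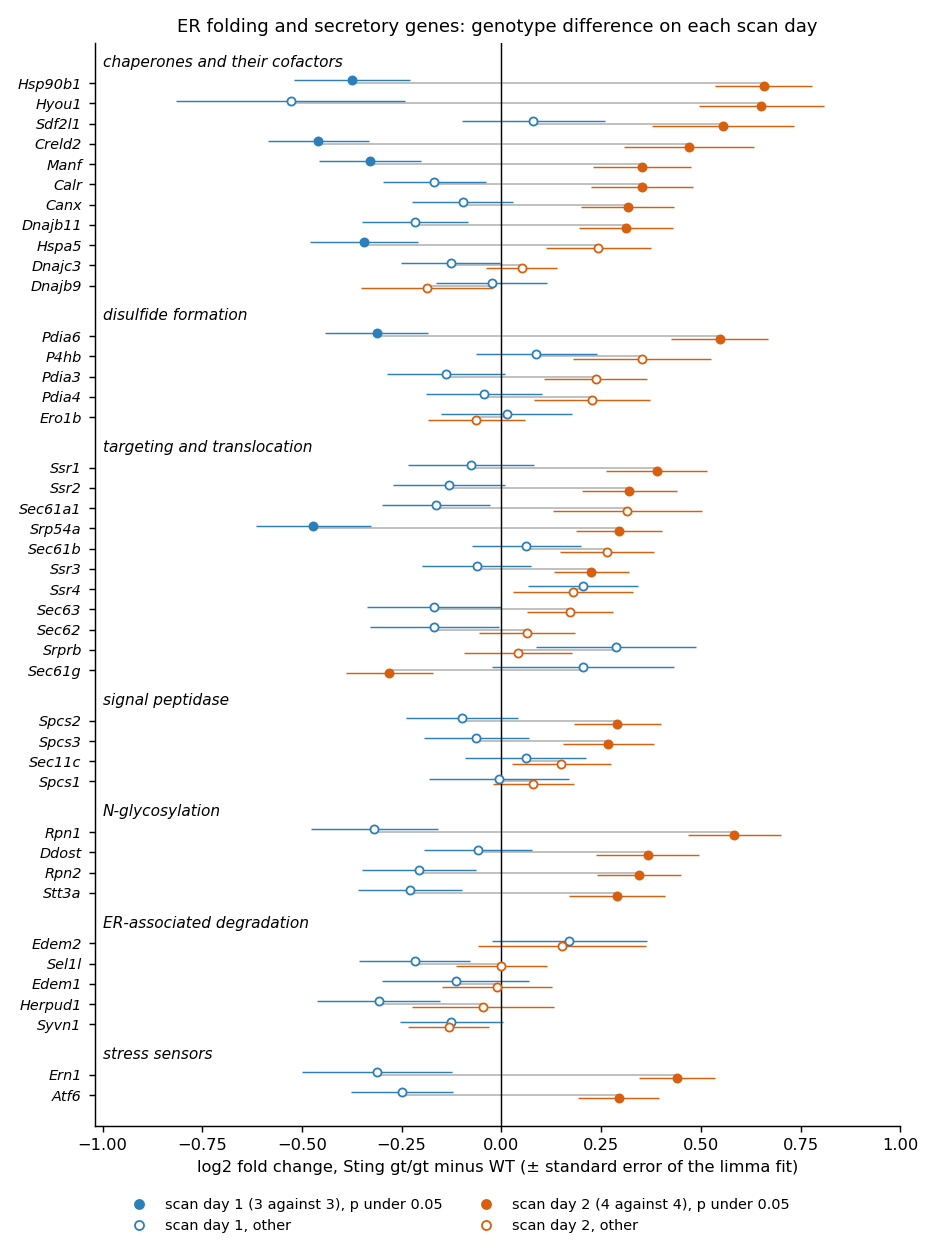
Log2 fold change of Sting gt/gt against WT for each of the 42 genes, grouped by role, on scan day 1 (blue, 3 against 3 mice) and scan day 2 (orange, 4 against 4 mice), with the standard error of the limma fit as bars. Filled points have an unadjusted p under 0.05. The orange points lie right of the blue ones for 35 of 42 genes. With the probes used, the genes of ER-associated degradation lie between -0.13 and 0.15 on scan day 2.

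The difference between the scan days was tested as an interaction of genotype and scan day in 1 model. It was called for 19 members, all more positive on scan day 2, which is 45.2% of the members beside 9.22% of all genes called in that direction. The median difference between days was 0.38, where the median of all genes was 0.03. After adjustment Hsp90b1 and Pdia6 passed, 4.76% of the members beside 0.49% of all genes. Their adjusted p-values lay near 0.05 and most single arrays decided them. Hsp90b1 stayed under 0.05 in 4 of 14 fits with an array left out (WT replicate 5 or Sting gt/gt replicate 2, 4 or 7) and Pdia6 in 2 of 14 (Sting gt/gt replicate 4 or 7). The 2 days share no array, so their differences are separate measurements, while the interaction is built from both.

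Of the 11 chaperones and cofactors, 4 were called lower on scan day 1, beside 1.2% of all genes. On scan day 2, 8 were called higher, beside 12.5% of all genes. BiP, the product of Hspa5, holds unfolded chains in the ER and is the classic target of the unfolded protein response. On scan day 1, Hspa5 stood at 5.99, 6.16 and 6.04 in WT and at 5.80, 5.75 and 5.60 in Sting gt/gt, so the groups did not overlap and Sting gt/gt was lower by -0.34 ± 0.14 (standard error of the log2 difference). Scan day 2 gave 5.83, 5.73, 5.73 and 5.42 in WT and 5.90, 6.08, 6.02 and 5.68 in Sting gt/gt. These groups overlapped, with a log2 difference of 0.24 ± 0.13 that was not called. The difference between days was 0.59 ± 0.18 (limma adjusted p = 0.122).

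Hsp90b1, also known as GRP94, folds a narrower set of clients that includes Toll-like receptors and integrins. In WT mice it was 6.16, 6.23 and 6.13 on scan day 1 and 6.19, 5.93, 6.01 and 5.91 on scan day 2. In Sting gt/gt mice it was 5.62, 5.97 and 5.81 on scan day 1 and 6.61, 6.72, 6.88 and 6.45 on scan day 2. On each day the groups were apart, with Sting gt/gt below WT on scan day 1 and above it on scan day 2. The log2 differences were -0.38 ± 0.14 on scan day 1 and 0.66 ± 0.12 on scan day 2, the latter being 1.58-fold (limma adjusted p = 0.0450). The difference between days was 1.03 ± 0.18 (limma adjusted p = 0.0371, exact two-sided permutation p = 0.00143, the smallest that 1400 arrangements within days can give).

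The largest difference between days among the members belonged to Hyou1, a large ER chaperone that also exchanges the nucleotide of BiP. It was -1.85, -1.37 and -1.99 in WT and -2.76, -1.73 and -2.30 in Sting gt/gt on scan day 1, where the groups overlapped. On scan day 2 it was -2.63, -2.38, -2.80 and -2.92 in WT and -2.13, -1.85, -1.83 and -2.32 in Sting gt/gt. Every Sting gt/gt value was above every WT value there. The log2 differences were -0.53 ± 0.29 and 0.65 ± 0.16, and 1.18 ± 0.33 between days (limma adjusted p = 0.0914). Creld2, an ER protein with isomerase activity that rises in ER stress, stood at 4.53, 4.56 and 4.48 in WT against 4.05, 4.13 and 4.01 in Sting gt/gt on scan day 1. It was called lower there by -0.46 ± 0.13. Its levels on scan day 2 were 4.36, 4.42, 4.21 and 4.29 in WT and 4.79, 4.91, 5.12 and 4.33 in Sting gt/gt, where replicate 7 lay within the WT range and the difference was 0.47 ± 0.16.

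Manf, a secreted stress-induced factor that binds BiP, was also lower in Sting gt/gt on scan day 1 and higher on scan day 2. Its log2 differences were -0.33 ± 0.13 and 0.35 ± 0.12, both called. The lectin chaperones calreticulin (Calr) and calnexin (Canx), which fold glycoproteins, were called on scan day 2 with 0.35 ± 0.13 and 0.32 ± 0.12, and Dnajb11, a cochaperone of BiP, with 0.31 ± 0.12. These 3 stood on scan day 1 at -0.17 ± 0.13, -0.10 ± 0.13 and -0.22 ± 0.13 and were not called. Sdf2l1 was called higher on scan day 2 by 0.56 ± 0.18, but was at 0.08 ± 0.18 on scan day 1, and its difference between days was not called. The chaperones not called on scan day 2 were Hspa5, Dnajc3, which also inhibits the kinase PERK, and Dnajb9, a cochaperone that represses the sensor IRE1. The last 2 stood at 0.05 ± 0.09 and -0.19 ± 0.17 on scan day 2.

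**Figure D2:**
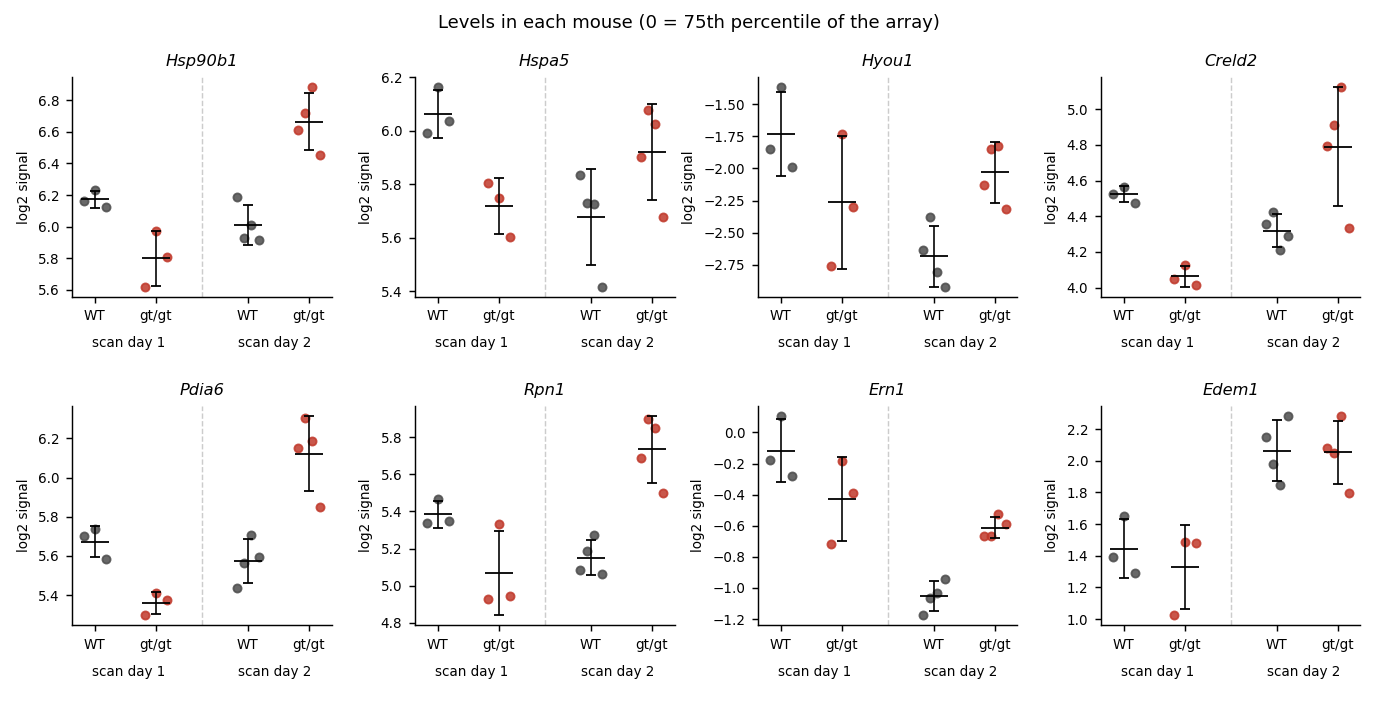
Log2 level of 8 genes in each mouse (points; 0 is the 75th percentile of the array), with the mean and SD of each group of 3 or 4 mice (bars), for WT (grey) and Sting gt/gt (red) on both scan days. Hspa5, Hsp90b1, Creld2 and Pdia6 lie below WT on scan day 1, and Hsp90b1, Pdia6, Rpn1, Hyou1 and Ern1 lie above it on scan day 2, while Edem1 overlaps on both days.

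The promoters of several of these genes hold the ER stress element (ERSE), the site through which ATF6, with the factor NF-Y, raises their transcription. It was searched as CCAAT and CCACG set 9 bases apart, on both strands, from 250 bases before to 50 bases after the start of each gene in RefSeq. The letters were found in 9 of the 35 members that have a promoter entry (25.7%), in 1 of 44 other ER genes, and in 37 of 27025 genes (0.137%). The element was first described in such promoters, so its presence is background and not a result of these arrays. The stretches below were read from the RefSeq promoter table (GRCm38.p6) and run 5′ to 3′ on the strand of the gene, all before its start. They are shown for 4 genes called on scan day 1, in Calr, called on scan day 2 alone, and in Syvn1 and Ero1b, which were not called on either day. Capitals mark the element, whose likeness between genes is set by the search. Where it lies on the opposite strand the capitals begin with CGTGG and end with ATTGG.
Hspa5 (chr2:34771985-34772083, + strand; element from -65 to -47, counted from the start): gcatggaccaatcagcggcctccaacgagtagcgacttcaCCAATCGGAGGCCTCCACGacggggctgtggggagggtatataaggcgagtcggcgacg
Hsp90b1 (chr10:86705598-86705694, - strand; from -212 to -194): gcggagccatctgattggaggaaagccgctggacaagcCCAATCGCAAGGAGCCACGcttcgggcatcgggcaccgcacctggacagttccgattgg
Hsp90b1 (chr10:86705493-86705591, - strand; second copy, from -107 to -89): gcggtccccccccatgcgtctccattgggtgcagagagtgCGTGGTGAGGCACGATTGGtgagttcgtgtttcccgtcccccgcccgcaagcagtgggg
Creld2 (chr15:88819480-88819578, + strand; from -126 to -108): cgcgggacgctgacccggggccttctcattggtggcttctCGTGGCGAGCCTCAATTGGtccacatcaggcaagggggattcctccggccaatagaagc
Pdia6 (chr12:17266451-17266549, + strand; from -98 to -80): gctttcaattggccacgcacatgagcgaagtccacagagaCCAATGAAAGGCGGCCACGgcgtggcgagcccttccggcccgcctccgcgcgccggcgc
Calr (chr8:84847035-84847133, - strand; from -162 to -144): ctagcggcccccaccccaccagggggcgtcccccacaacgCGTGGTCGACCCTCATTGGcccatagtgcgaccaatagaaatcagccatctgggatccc
Ero1b (chr13:12565642-12565740, + strand; from -201 to -183): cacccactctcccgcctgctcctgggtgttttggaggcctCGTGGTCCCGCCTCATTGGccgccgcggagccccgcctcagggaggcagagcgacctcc
Syvn1 (chr19:6046492-6046575, + strand; from -44 to -26): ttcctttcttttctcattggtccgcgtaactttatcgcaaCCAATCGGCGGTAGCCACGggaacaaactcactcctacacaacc

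Besides these, Canx and Dnajc3 hold 1 copy each on the strand of the gene. Hsp90b1 is the 1 member with a second copy in this window. The related ERSE-II, ATTGG and CCACG set 1 base apart, was found in Dnajb11 and Herpud1, 5.71% of the members with an entry beside 0.0444% of all genes. Of the 9 members with an ERSE, 4 were called lower on scan day 1 and 5 higher on scan day 2. Of the 26 with an entry and no ERSE, 1 was called lower on scan day 1 and 11 higher on scan day 2. Of all genes tested, 1.2% were called lower on scan day 1 and 12.5% higher on scan day 2. The called members without these letters were Srp54a on scan day 1 and, among others, Rpn1, Ssr1 and Ern1 on scan day 2. Whether the calls go with the element was not tested. A match is a description of the sequence, and binding was not measured. The table held no entry for Sec61a1, Sec11c, Spcs3, Hyou1, Manf, Ssr2 and Atf6.

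**Figure D3:**
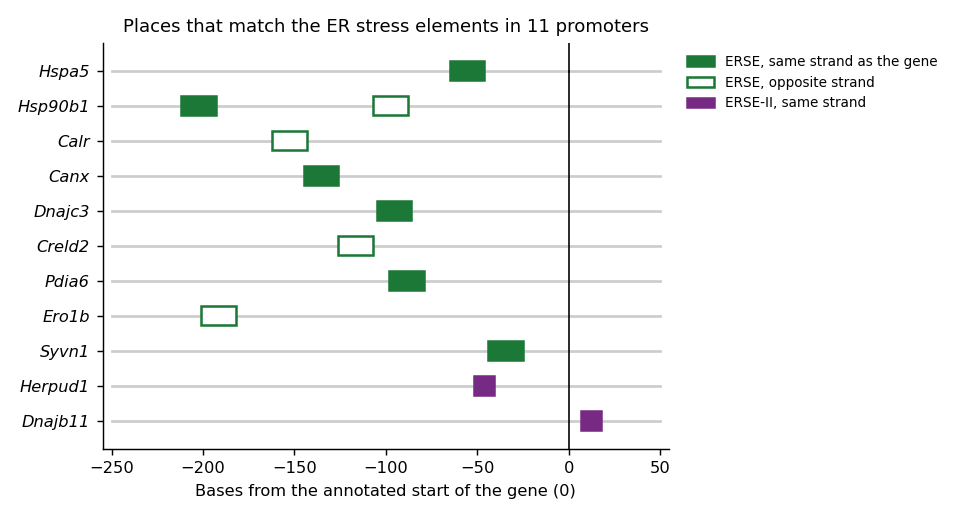
Places of the letters of ERSE (green, filled on the strand of the gene and open on the opposite strand) and ERSE-II (purple) in the promoters of 11 members, in bases from the annotated start of each gene. All copies of ERSE lie within the 250 bases before the start, Hsp90b1 has a pair of them, and the ERSE-II of Dnajb11 lies just past the start.

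Pdia6 encodes a protein disulfide isomerase that also acts on the sensors IRE1 and PERK. Of the 5 genes of disulfide formation in the set, it was the 1 called. On scan day 1 it was called lower, beside 1.2% of all genes, and on scan day 2 higher, beside 12.5%. It was 5.70, 5.74 and 5.58 in WT and 5.30, 5.41 and 5.38 in Sting gt/gt on scan day 1. Its levels on scan day 2 were 5.43, 5.56, 5.71 and 5.59 in WT and 6.15, 6.31, 6.18 and 5.85 in Sting gt/gt. The groups did not overlap on either day. The log2 differences were -0.31 ± 0.13 and 0.55 ± 0.12 and the difference between days was 0.86 ± 0.17 (limma adjusted p = 0.0466, exact two-sided permutation p = 0.00143, the smallest possible). The other isomerases Pdia3, Pdia4 and P4hb were not called on either day, with log2 differences on scan day 2 of 0.24 ± 0.13, 0.23 ± 0.14 and 0.35 ± 0.17. Pdia4 was at -0.04 ± 0.15 on scan day 1. Ero1b, the oxidase that recharges the isomerases in secretory cells, was at 0.01 ± 0.16 and -0.06 ± 0.12. Txndc5, an isomerase, is among the other ER genes. It was 3.56, 3.60 and 3.51 in WT and 2.99, 3.39 and 3.35 in Sting gt/gt on scan day 1. On scan day 2 it was 3.32, 3.21, 3.09 and 3.08 against 3.52, 3.79, 4.11 and 3.65. The groups did not overlap on either day. Txndc5 was called on scan day 2 and in the difference between days. Ero1a, Pdia5 and Txndc11 of that list were called in neither.

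In targeting and translocation the genotype difference was uneven among the members. Srp54a encodes the subunit of the signal recognition particle that binds signal peptides. It was 0.795, 0.882 and 0.875 in WT and 0.222, 0.563 and 0.354 in Sting gt/gt on scan day 1, and 0.509, 0.606, 0.842 and 0.525 in WT and 0.968, 0.996, 0.847 and 0.848 in Sting gt/gt on scan day 2. The groups were apart on both days, by -0.47 ± 0.14 and 0.29 ± 0.11. The mouse genome carries near-identical copies of this gene that the probe may not tell apart, so its level is uncertain. The translocon-associated proteins Ssr1, Ssr2 and Ssr3, which assist the channel, were called higher on scan day 2 by 0.39 ± 0.13, 0.32 ± 0.12 and 0.22 ± 0.09, with no overlap of the groups. Ssr4 of the same complex was not called, at 0.18 ± 0.15, and on scan day 1 Ssr1 and Ssr2 were at -0.08 ± 0.16 and -0.13 ± 0.14.

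The channel itself did not move as one. Sec61a1, its pore-forming subunit, was at -0.16 ± 0.14 on scan day 1 and 0.32 ± 0.19 on scan day 2 and was not called on either. The latter was 0.15 without WT replicate 7, and 0.43 and called without WT replicate 5. Its probes disagreed, since 1 further probe stood at -0.75 and -0.37 on the 2 days and another at -0.52 and 0.46, and as the mean of its probes Sec61a1 was called lower on scan day 1 at -0.48. Sec61b was at 0.27 ± 0.12 on scan day 2 and was not called. Sec61g, the small subunit, was the 1 member called lower there, at 7.22, 7.30, 7.41 and 7.46 in WT and 7.07, 7.23, 7.09 and 6.88 in Sting gt/gt, a log2 difference of -0.28 ± 0.11 with overlapping groups. Sec62 and Sec63, which assist post-translational import, and Srprb, a receptor subunit, were not called on either day, with scan day 2 differences between 0.04 and 0.17.

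The signal peptidase and the oligosaccharyltransferase act on the chain as it enters. In the peptidase, 2 of 4 members were called higher on scan day 2, beside 12.5% of all genes. These were Spcs2 and Spcs3, at 0.29 ± 0.11 and 0.27 ± 0.11. Spcs1 and the catalytic subunit Sec11c were at 0.08 ± 0.10 and 0.15 ± 0.12. None of the 4 was called on scan day 1, where Spcs2 was at -0.10 ± 0.14 and Sec11c at 0.06 ± 0.15. In the transferase, which attaches N-linked sugars, all 4 members were called higher on scan day 2 and in the difference between days. The shares of all genes were 12.5% and 9.22%. Rpn1 was 5.34, 5.47 and 5.35 in WT and 4.93, 5.33 and 4.94 in Sting gt/gt on scan day 1, and 5.08, 5.19, 5.27 and 5.06 against 5.69, 5.90, 5.85 and 5.50 on scan day 2. Every Sting gt/gt mouse lay below every WT mouse on scan day 1 and above every WT mouse on scan day 2. The log2 differences were -0.32 ± 0.16, not called, and 0.58 ± 0.12, called (limma adjusted p = 0.0507). The difference between days was 0.90 ± 0.18. On scan day 2, Rpn2, Ddost and Stt3a were higher in Sting gt/gt by 0.34 ± 0.10, 0.37 ± 0.13 and 0.29 ± 0.12 with no overlap of the groups. Stt3a is a catalytic subunit. They were at -0.21 ± 0.14, -0.06 ± 0.14 and -0.23 ± 0.13 on scan day 1. Of 7 further subunits of the transferase among the other ER genes, 2 were called higher on scan day 2, beside 12.5% of all genes. These were Dad1 and Krtcap2, at 0.28 ± 0.10 and 0.38 ± 0.15. Dad1 and Magt1 were called in the difference between days, beside 9.22% of all genes. The catalytic subunit Stt3b was at 0.09 ± 0.11 on scan day 2 and Tusc3 at -0.17 ± 0.14.

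None of the 5 members in ER-associated degradation was called on either day or in the difference between days. Herpud1, a stress-induced adaptor, was at -0.31 ± 0.15 on scan day 1 and -0.05 ± 0.18 on scan day 2, and Edem1, which hands misfolded glycoproteins to degradation, at -0.12 ± 0.18 and -0.01 ± 0.14. Edem1 was 2.15, 1.98, 1.84 and 2.28 in WT and 2.08, 2.05, 2.28 and 1.80 in Sting gt/gt on scan day 2, where the groups overlapped throughout. The ubiquitin ligase Syvn1, its partner Sel1l and Edem2 lay between -0.13 and 0.15 on scan day 2. These values depend on the probe. Further probes of Edem2, Edem1 and Sel1l stood at 0.45, 0.31 and 0.22 on scan day 2, and that of Herpud1 at -0.22. Whether these genes differ from the other members was not tested. Of 10 further degradation genes among the other ER genes, 1 was called lower on scan day 1, beside 1.2% of all genes. On scan day 2, 1 was called higher, beside 12.5%, and 2 were called in the difference between days, beside 9.22%. Derl3, a derlin of the ER membrane, was called in all of these comparisons. It was 1.72, 1.30 and 1.63 in WT and 1.02, 0.780 and 0.794 in Sting gt/gt on scan day 1, and 1.44, 1.41, 1.30 and 1.405 against 1.95, 1.92, 2.65 and 1.67 on scan day 2. The groups did not overlap on either day, with log2 differences of -0.69 ± 0.16 and 0.66 ± 0.19. Its difference between days was 1.34 ± 0.27 (limma adjusted p = 0.0494, under 0.05 in 2 of 14 fits with an array left out), above that of any member. Os9, a lectin of the same pathway, was called in the difference between days at 0.37 ± 0.15.

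Both sensors in the set were called higher on scan day 2, beside 12.5% of all genes. Ern1 encodes IRE1, which splices the Xbp1 transcript in stress, and Atf6 the factor that acts at the ERSE. Ern1 was -0.18, 0.11 and -0.28 in WT and -0.72, -0.18 and -0.39 in Sting gt/gt on scan day 1, with a log2 difference of -0.31 ± 0.19. Its levels on scan day 2 were -1.18, -1.06, -1.03 and -0.94 in WT and -0.67, -0.67, -0.52 and -0.59 in Sting gt/gt. It was called there without overlap at 0.44 ± 0.10, and the difference between days was 0.75 ± 0.19. Atf6 was at -0.25 ± 0.13 and 0.29 ± 0.10, with 0.73, 0.77, 1.02 and 0.94 in WT and 1.21, 1.20, 1.12 and 1.11 in Sting gt/gt on scan day 2. Eif2ak3, which encodes the sensor PERK and is among the other ER genes, was not called, at -0.08 ± 0.17 and 0.11 ± 0.14. Its levels on scan day 2 were 1.29, 1.21, 0.938 and 0.880 in WT and 0.976, 1.07, 1.43 and 1.28 in Sting gt/gt, where the groups overlapped. These arrays read total transcript and not the splicing of Xbp1 or the cleavage of ATF6.

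Of the 56 other ER genes tested, 5 were called lower on scan day 1, 14 higher and 1 lower on scan day 2, and 22 in the difference between days, all of them more positive on scan day 2. As shares these were 8.93% beside 1.2% of all genes, 25% higher beside 12.5%, 1.79% lower beside 11.3%, and 39.3% beside 9.22%. Xbp1, the transcription factor that builds the secretory apparatus of plasma cells, was 5.32, 5.36, 5.24 and 5.24 in WT and 5.58, 5.74, 5.80 and 5.34 in Sting gt/gt on scan day 2. It was called there at 0.32 ± 0.12, with 1 Sting gt/gt mouse in the WT range, and stood at -0.09 ± 0.13 on scan day 1 and 0.15 ± 0.17 over all arrays. Across all 14 arrays Ddit3 was the 1 other ER gene called, 1.79% of that list beside 3.54% of all genes. It encodes CHOP, the factor tied to cell death in prolonged ER stress. Its level ran from -0.21 to 1.098 with a median of 0.36 in WT and from -0.84 to 0.62 with a median of -0.26 in Sting gt/gt, lower by -0.65 ± 0.23 (limma adjusted p = 0.999). It lay below 0 on both days, at -0.42 ± 0.27 and -0.82 ± 0.19, whereas most chaperones lay above 0 on scan day 2.

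Levels also differed between the scan days with genotype in the model. After adjustment 13 members passed, 31% beside 38.8% of all genes, a share below that of the array as a whole. Among them Edem1, Dnajc3, Ssr3 and Dnajb9 were higher on scan day 2 by 0.67, 0.66, 0.61 and 0.57, and Ern1 and Sec11c lower by -0.56 and -0.43.

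Markers of cell types were set beside the ER genes. Of 10 plasma cell markers, Jchain was called lower on scan day 1, beside 1.2% of all genes. On scan day 2, Jchain, Sdc1, Tnfrsf17 and Xbp1 were called higher, beside 12.5% of all genes. Sdc1, or syndecan-1, was -1.94, -1.99, -2.05 and -1.90 in WT and -1.16, -1.12, -0.85 and -1.30 in Sting gt/gt on scan day 2, higher by 0.86 ± 0.12 (limma adjusted p = 0.0297). Tnfrsf17, the receptor BCMA, was higher by 0.78 ± 0.15 (limma adjusted p = 0.04996), and Jchain, which joins secreted IgM and IgA, by 0.60 ± 0.16. The markers Prdm1, Irf4, Tnfrsf13b, Cd38, Ly6c2 and Slamf7 were not called on either day. The list was mixed in direction. On scan day 2, 7 of the 10 markers lay above 0 and 3 below, the lowest being Prdm1 at -0.26. On scan day 1, 3 lay above 0 and 7 below. The mean over the 10 markers ran from 1.46 to 1.78 in WT and from 1.81 to 2.06 in Sting gt/gt on scan day 2, and from 1.497 to 1.590 and from 1.409 to 1.596 on scan day 1. All 10 markers were above background, and Xbp1 is in both lists.

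Other lists held called markers as well. On scan day 2, 11.3% of all genes were called lower. Of 8 B cell markers, 6 were called lower there, and the mean ran from 2.85 to 3.37 in WT and from 2.51 to 2.82 in Sting gt/gt. Of the same markers 7 lay above 0 on scan day 1, with 2.42 to 2.80 in WT and 2.69 to 3.15 in Sting gt/gt. Fcer2a was called higher there, by 0.55. In the difference between days 7 of the 8 were called, all more negative on scan day 2, beside 9.19% of all genes. The median of the 8 in that difference was -0.73. Of 7 erythroid markers 5 were called lower on scan day 2, with 4.80 to 5.39 in WT and 4.51 to 4.89 in Sting gt/gt. Of 7 neutrophil markers Mpo, an enzyme of immature granulocytes, was called higher on scan day 2, at 6.96, 7.12, 6.90 and 6.98 in WT and 7.52, 8.21, 8.23 and 6.89 in Sting gt/gt. The neutrophil list ran from 6.91 to 7.09 and from 6.76 to 7.78. Of 4 NK cell markers Ncr1 was called higher on scan day 1, by 0.49 ± 0.16, beside 2.57% of all genes called higher. The mean of that list ran from -0.43 to -0.12 in WT and from -0.10 to 0.26 in Sting gt/gt on scan day 1 without overlap, and from -0.16 to 0.32 and from -0.03 to 0.70 on scan day 2. Of 8 immediate early and stress genes, Hspa1b was called lower and Atf3 higher on scan day 1, by -0.88 ± 0.27 and 0.55 ± 0.20, and Dnajb1 and Ddit3 lower on scan day 2, by -0.39 ± 0.16 and -0.82 ± 0.19. Of 5 dendritic cell markers Siglech was called lower on scan day 2, by -0.28 ± 0.12. None of 7 T cell, 7 macrophage and monocyte or 5 cycling cell markers was called on either day. The part of these cell types in the ER gene result was not tested.

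**Figure D4:**
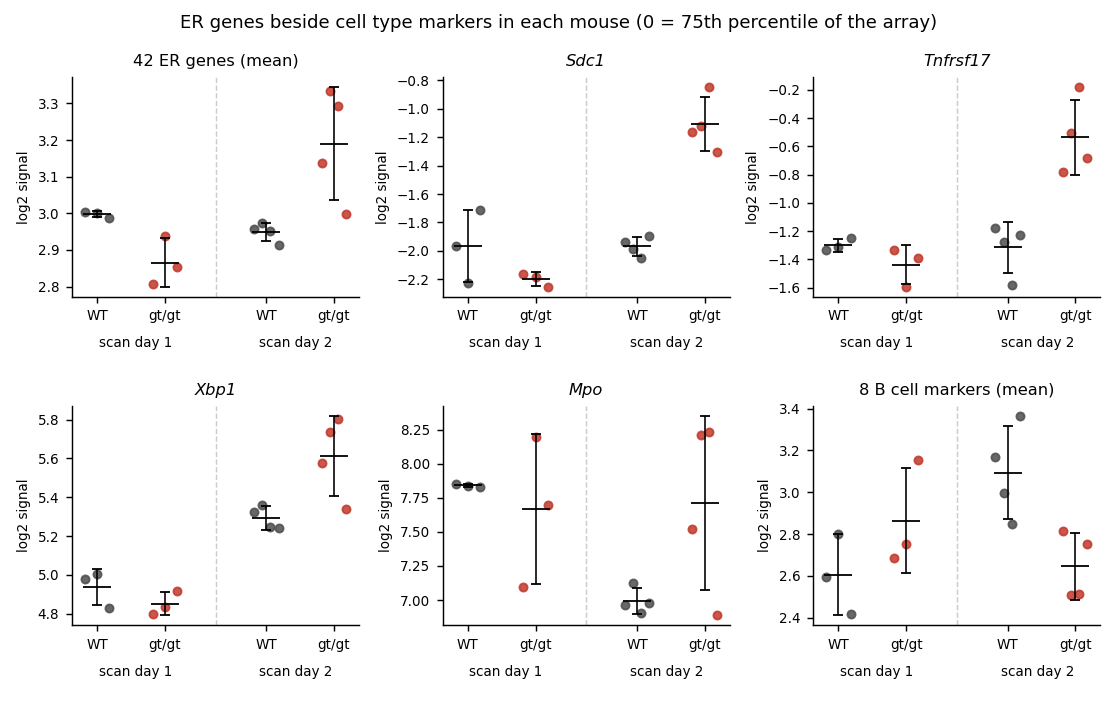
Mean log2 level of the 42 ER genes, log2 levels of Sdc1, Tnfrsf17, Xbp1 and Mpo, and the mean of 8 B cell markers in each mouse (points; 0 is the 75th percentile of the array), with the mean and SD of each group (bars). On scan day 2 the ER genes, Sdc1 and Tnfrsf17 lie above WT in every Sting gt/gt mouse. The B cell markers lie below WT in every one, while Mpo is high in 3 of 4. Plasma cell markers that were not called, such as Prdm1, are not drawn.

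Where a member had further probes, they mostly agreed in sign. The 22 members with other tested probes had 26 of them, of which 23 had the sign of the probe used on scan day 2 and 22 in the difference between days. The other 3 on scan day 2 belonged to Sec61a1, at -0.37 as given above, to Edem1, at 0.31, and to Sel1l, at 0.22 where the probe used stood at -0.00052. The mean of its probes turned the scan day 2 difference of Edem1 to 0.15. In the difference between days Dnajb9, Srprb, Edem2 and Herpud1 each had a probe of opposite sign. Of the further probes of Xbp1, both were above 0 on scan day 2, at 0.20 and 0.30, but also on scan day 1, at 0.27 and 0.20.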

How the data were processed

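Splenocyte RNA of 7 WT and 7 Sting gt/gt mice was measured on 1-colour (Cy3) Agilent arrays, 1 mouse per array. The deposited scanner files hold intensity values per spot that the authors obtained with Agilent Feature Extraction 11.0.1.1, already background-subtracted in the processed signal. The series table holds log2 values of the same probes that the authors had normalized, and was an alternative here.

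Control spots and outlier spots were left out, spots of a probe averaged, and log2 processed signals centred on the 75th percentile of each array. A probe was kept when 7 or more of the 14 arrays read it well above background (31766 of 56605). On an array, 30781 to 34400 probes were above background. Symbols came from RefSeq (GRCm38.p6) through each probe's accession and named 58.3% of probes, and the brightest probe stood for a gene. All 42 members and 56 of 58 symbols of other ER genes were matched and tested. Fkbp11 was not, nor was Vimp, an older symbol of Selenos, which is also listed and was tested. Genotypes were compared with limma 3.58.1 in R 4.3.3 over all arrays, on each scan day and as an interaction, with exact permutation tests in Python 3.11.15. The fits were tested on simulated data with known changes.

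Members, lists and tests were chosen with earlier results of these data known. The genes named singly were members called over all arrays, in the model with the scan day or in the interaction, a set of 15 landmark members, other ER genes called over all arrays, Xbp1 and Sting1, and those that complete a count or a role, including other ER genes grouped by role after their values were seen. Alternatives were other scalings, background corrections, probe filters, tests and covariates, and each array left out. Normexp used the median spot signal with offset 50. Same-numbered mice deviated together (correlations 0.156 to 0.533), but with the scan day removed the correlations ran from -0.408 to 0.248, so the pairing is that of the scan day.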

Additional observations from a re-analysis of the deposited data

Results flagged for a closer look

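Ssr1, a subunit of the translocon-associated protein complex, stood at 4.377 on the log2 scale in WT replicate 7, below the 6 other WT mice. Its gap to the nearest of them was 0.654 of the range of the group. Both genotypes were examined for 30 genes, 60 groups in all, and chance marks about 1 such group in 20.

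The genotype difference of Hsp90b1 was 1.032 higher on scan day 2 than on scan day 1, and that of Pdia6 0.8605 higher, both on the log2 scale. The interaction was tested for each in limma and passed after adjustment over all genes (adjusted p = 0.0371 and 0.0466). Sting gt/gt lay below WT on scan day 1 and above it on scan day 2 for both genes. Without single arrays the adjusted p ran from 0.0281 to 0.114 for Hsp90b1 and from 0.0281 to 0.119 for Pdia6.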

How the results depend on the processing

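Over all 14 arrays, where 1 member was called, 0 were called with median centring, without scaling, with the slide as a random block and with the replicate block (the number of the mouse as a factor), 2 with the authors' series table and with the methods' t-test, both higher, 2 with the slide as a fixed block, both lower, and 17 higher once arrays were weighted and the variance followed the intensity. The slide as a fixed block left 9 and as a random block 16 members above 0, and turned their median to -0.12 and -0.041. It turned Hsp90b1 to -0.40 and -0.0904, Xbp1 to -0.11 and -0.02, and Sting1 to -0.10 and -0.015. Sting1 was -0.019 without scaling. The median of the members was 0.0498 without scaling and 0.20 with array weights and trend. The replicate block lost Sdf2l1 and was run over all arrays only.

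Of the members 3 were called on scan day 1 with quantile normalization or without scaling, and 2 without the filter on dim probes. The median there was -0.19 with median centring, -0.081 with quantile normalization, -0.18 without scaling and -0.086 with the series table. Without scaling 8 members were called on scan day 2, and the median was 0.19 with the series table. The median difference between days was 0.25 with quantile normalization and 0.24 with the series table. Median centring moved the median of all genes in that difference to 0.11, against which the members stood at 0.46.

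Differences near 0 changed sign. Pdia4 on scan day 1 became 0.000319 with quantile normalization and 0.000819 with the series table. Ero1b on that day became -0.051 with median centring and -0.042 without scaling, and Sec11c -0.0029 with median centring. Ddost became 0.0031, 0.001003 and 0.0040 with quantile normalization, normexp and the series table, and Xbp1 0.13 as the mean of its probes. Edem1 on scan day 2 became 0.0067, 0.0070 and 0.15 with median centring, normexp and the mean of its probes.

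With each array left out, 0 to 3 members were called over all arrays (median 0.059 to 0.14), 2 to 5 on scan day 1 (median -0.18 to -0.10) and 11 to 27 on scan day 2. Dnajb9 on scan day 1 ran from -0.11 to 0.028, Sdf2l1 from -0.0057 to 0.25, Pdia4 from -0.13 to 0.027, Ero1b from -0.079 to 0.14, Ssr1 from -0.21 to 0.011, Sec11c from -0.029 to 0.12 and Edem1 from -0.19 to 0.038. Sec61a1 on scan day 2 ran from 0.15 to 0.43, Ero1b from -0.14 to 0.0019, Edem1 from -0.088 to 0.074 and Herpud1 from -0.17 to 0.061. Sting1 over all arrays ran from -0.00091 to 0.0801.

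Of single-gene values under other settings, 691 kept direction and side of the threshold, 60 lost the call, 7 gained one and 19 changed sign. With an array left out, 638 kept both, 90 lost the call, 6 gained one and 22 changed sign. The cause was not tested in any of these. The slide as a fixed block rests on the 5 arrays of slides 1 and 2. The interaction was called for 14 to 22 members under the alternatives of scaling, background, filter and probe choice.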
